A study of Mus musculus with 5 samples.

Results

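Solute carriers are membrane proteins that move nutrients, metals, ions and metabolites across the cell surface or the membranes of organelles. They were examined in RNA-seq of mouse tumor macrophages by taking every row of the authors' deposited gene table with a tested status, 1 gene symbol made of Slc, a family number, a letter and a member number, and a level of at least 1 FPKM in either group. FPKM scales the fragments of a gene by its transcript length and by the size of the library, so that levels of genes can be set side by side. Where reads may be shared with gene copies or overlapping genes, a level and its rank are uncertain. The rule gave 179 genes, out of 11119 genes that met the same conditions in the whole table and out of 24982 rows in all. Of the 179, 174 encode transporters or transporter subunits. The other 5 only carry a transporter's name, such as the scaffold genes Slc9a3r1 and Slc9a3r2, and are counted but kept in a class of their own.

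The macrophages came from tumors of the 9609 line, a mouse MCA fibrosarcoma. The MEK1-hi group had 3 libraries from tumors labelled MEK1-hi in line and genotype and treated with MEK1-hi exosomes, and the MEK1-low group had 2 libraries from tumors labelled MEK1-low and treated with MEK1-low (GFP) exosomes. Exosomes are small vesicles shed by cells, and MEK1 is a kinase of the RAS-RAF-MEK-ERK cascade. The labels give no strain, age, sex or number of animals, do not say how the macrophages were purified, and do not say which group's tumors were the rejecting and which the growing ones of the series title. The labels do not say whether libraries of a group came from separate animals, so p and q rest on the variation among these libraries alone, and that variation may be technical.

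The deposited table holds 1 pooled FPKM value per group and the result of the authors' Cuffdiff test, with no value per library, so no SD can be given and whether single libraries of the groups overlap cannot be seen. Called means a deposited q (the adjusted p over all tested rows) of at most 0.05. Over the 11119 genes, 1.43% were called, and 6.29% had an unadjusted p under 0.05 in the authors' deposited Cuffdiff test. Counts for markers, classes and gene lists below are to be read beside these shares. Macrophage markers were abundant, with a summed level over 12 genes of 17598 FPKM in MEK1-hi and 15233 FPKM in MEK1-low and none at 0. Transcripts of other cells were also present. All 12 tested fibroblast or fibrosarcoma markers had lower levels in MEK1-hi, 4 of them called, with sums of 1162 FPKM in MEK1-hi and 1806 FPKM in MEK1-low and none at 0. Of 9 dendritic cell markers, 8 were higher, 3 of them called, with sums of 102 FPKM in MEK1-hi and 65.9 FPKM in MEK1-low and none at 0. For T or NK cells the sums over 9 markers were 23.9 FPKM in MEK1-hi and 10.001 FPKM in MEK1-low, with none at 0. B or plasma cell markers summed to 10.4 FPKM in MEK1-hi and 8.79 FPKM in MEK1-low, and neutrophil markers to 63.4 FPKM in MEK1-hi and 56.1 FPKM in MEK1-low, with Elane at 0 in both. These are bulk samples, in which fewer cells of a type and less RNA per cell cannot be told apart, and the part of these other cells in the differences below was not tested.

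In macrophages, solute carriers set how much arginine, glucose, lactate and iron a cell takes up or releases. Slc11a1, also called NRAMP1, pumps divalent metals out of the phagosome and is a classical resistance gene against intracellular microbes, while Slc40a1, ferroportin, is the only known exporter of iron from the cell. Slc7a family transporters carry arginine and other amino acids, several of them as light chains bound to the heavy chain encoded by Slc3a2. Most Slc25 carriers sit in the inner mitochondrial membrane and exchange phosphate, ADP, ATP and metabolic acids between mitochondria and cytosol.

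The carriers as a whole differed little between the groups. Of 179 members, 1 was called by Cuffdiff in the authors' deposited table, Slc28a2, and it was higher in MEK1-hi, while 0 were called lower. That is 0.559% of the members, beside 1.43% of all 11119 tested genes (1.1% called higher and 0.333% called lower). At an unadjusted p under 0.05, the authors' deposited table held 15 members, 9 higher and 6 lower, which is 8.38% of the members beside 6.29% of all tested genes. For the higher direction the shares were 5.03% of members and 3.64% of all tested genes, and for the lower direction 3.35% and 2.64%. A fold of at least 1.5 in either direction was reached by 16 members, 8.94%, beside 8.29% of all tested genes. The median log2 fold change (MEK1-hi over MEK1-low, computed from the pooled FPKM) was -0.04 over the members and -0.02 over all tested genes. Above 0 lay 78 members and below 0 lay 101, so that 43.6% of the members were above 0, beside 46.5% of all tested genes. Bringing the FPKM sums of both groups to one value lowers every log2 fold change by the same amount, a shift of -0.13, which leaves 45 members above 0 and 134 below and moves the median of all tested genes to -0.15. Directions of small differences therefore depend on the scaling. The metal, amino acid, sugar, lactate and Slc25 classes are set beside the median of all tested genes further on.

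**Figure D1:**
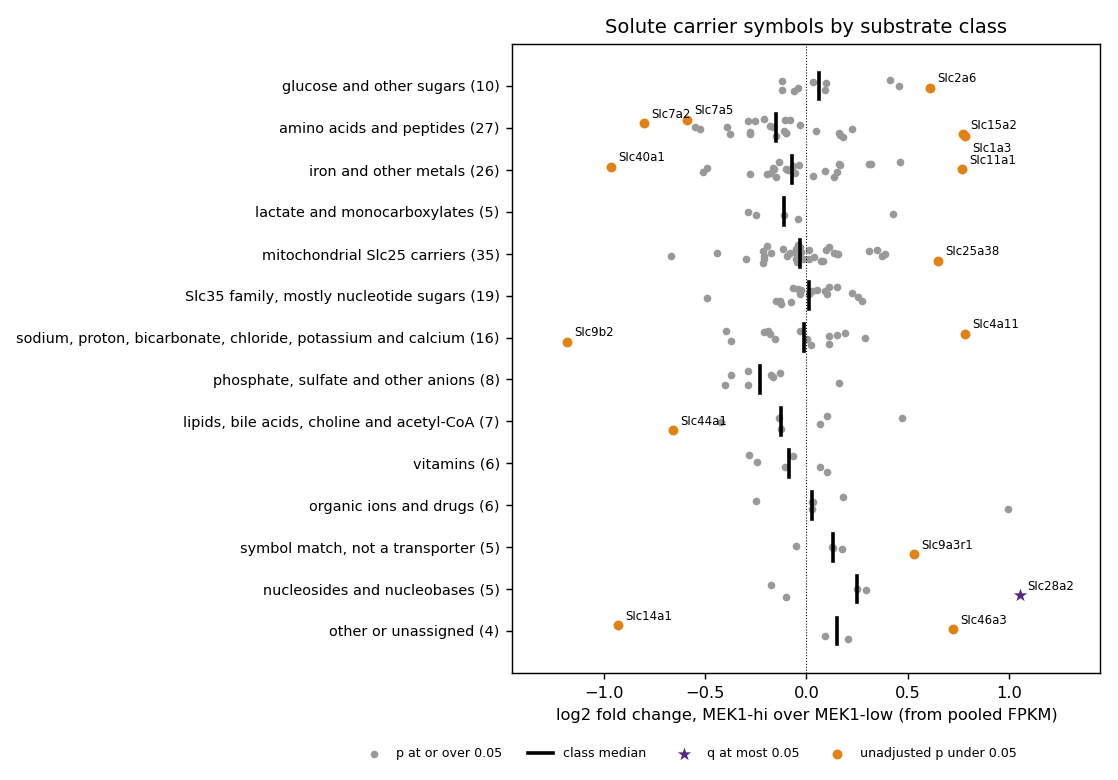
Each point is 1 of the 179 genes, placed on the horizontal axis by its log2 fold change of MEK1-hi over MEK1-low and on the vertical axis by substrate class, with the number of members in brackets; black bars are class medians. Most points lie close to 0, orange points are the members with an unadjusted p under 0.05, and the star is Slc28a2, the 1 member called by Cuffdiff.

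Levels spread over more than 2 orders of magnitude. The median of the members' mean levels was 10.7 FPKM, beside 11.2 FPKM over all tested genes; 7 members averaged at least 100 FPKM and 52 averaged under 5 FPKM. The 10 most abundant members made up 45.5% of the summed carrier FPKM in MEK1-hi and 44.8% in MEK1-low. Slc15a3, a lysosomal transporter of peptides and histidine, led with 485 FPKM in MEK1-hi and 469 FPKM in MEK1-low. The mitochondrial phosphate carrier Slc25a3 followed with 362 FPKM in MEK1-hi and 342 FPKM in MEK1-low. The amino acid transporter heavy chain Slc3a2 had 338 FPKM in MEK1-hi and 303 FPKM in MEK1-low. None of these 3 was called. The locus of Slc15a3 overlaps that of Tmem132a (72.4 FPKM in MEK1-hi and 69.6 FPKM in MEK1-low), so the split of reads between them is uncertain. The summed level of all members was 4952 FPKM in MEK1-hi and 4819 FPKM in MEK1-low.

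At the edge of the rule, the member with the lowest value in its higher group was Slc2a4rg-ps, a pseudogene, with 0.972 FPKM in MEK1-hi and 1.01 FPKM in MEK1-low. The gene just outside by the same measure was Slc22a15, with 0.973 FPKM in MEK1-hi and 0.905 FPKM in MEK1-low. Of 374 rows with a matching symbol, 180 were not tested by Cuffdiff, all under 1 FPKM in both groups (the highest 0.476 FPKM) and 74 of them at 0 in both, and 15 were tested but under 1 FPKM in both groups. Of those 15, 0 were called and 2 had an unadjusted p under 0.05 in the authors' deposited table, both lower in MEK1-hi. They were Slc45a3, with 0.248 FPKM in MEK1-hi and 0.718 FPKM in MEK1-low, and Slc7a4, with 0.254 FPKM in MEK1-hi and 0.649 FPKM in MEK1-low.

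The called member was the nucleoside transporter Slc28a2, which takes up purine nucleosides and uridine together with sodium. Slc28a2 (chromosome 2, 122440820 to 122461136, mm10) had 11.97 FPKM in MEK1-hi and 5.76 FPKM in MEK1-low. It rose 2.08-fold, or 1.06 on the log2 scale, with a statistic of 2.38, p = 0.0005 and q = 0.0400 in the authors' deposited table. The call lies close to the threshold. It was lost when the authors' p values were adjusted by Benjamini-Yekutieli, where the adjusted p was 0.400. Under that adjustment 0 of the 12311 tested rows were called, the smallest deposited p being 5e-05 in 91 rows. That loss is therefore not particular to Slc28a2. The call was also lost when p was taken from the deposited Cuffdiff statistic and a normal distribution, which gave an unadjusted p of 0.0171. A gene named as its copy, Slc28a2b (chromosome 2, 122484941 to 122528040), was listed at 0 in both groups and not tested, so how reads were shared between the copies cannot be seen. The other nucleoside carriers did not pass. The plasma membrane carrier Slc29a1 had 52.5 FPKM in MEK1-hi and 56.2 FPKM in MEK1-low. Its lysosomal relative Slc29a3 had 45.2 FPKM in MEK1-hi and 36.8 FPKM in MEK1-low, and the purine nucleobase carrier Slc43a3 had 12.4 FPKM in MEK1-hi and 10.4 FPKM in MEK1-low. The class of 5 had a median log2 fold change of 0.25, with 3 above 0 and 2 below.

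**Figure D2:**
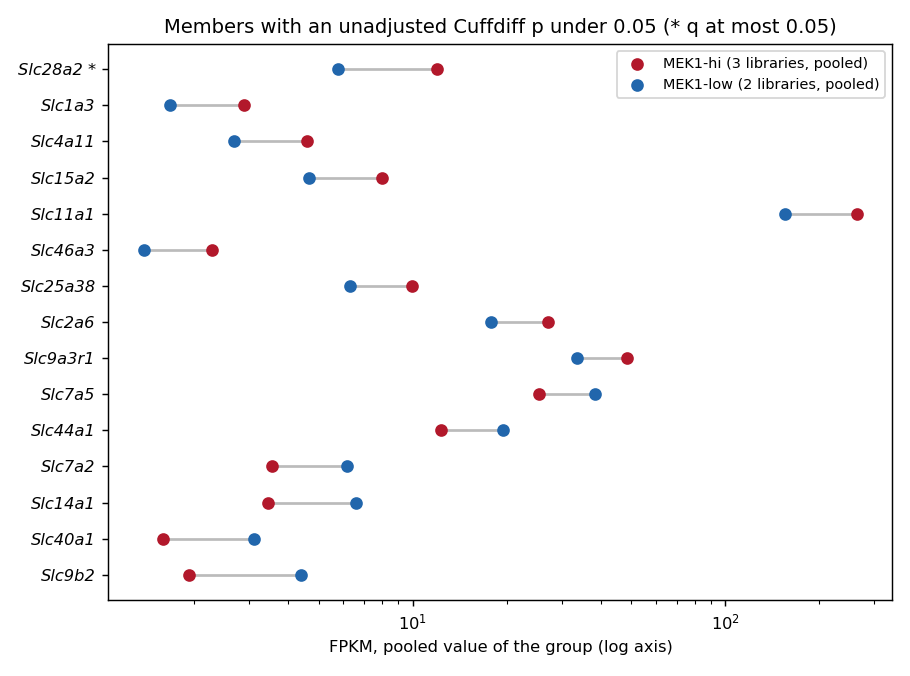
The 15 members with an unadjusted Cuffdiff p under 0.05 are listed down the page by log2 fold change, and points give the pooled FPKM of MEK1-hi (red) and MEK1-low (blue) on a log axis. Slc11a1 stands apart by its level of 264 FPKM in MEK1-hi and 155 FPKM in MEK1-low, while most of the others lie under 20 FPKM.

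Metal carriers held the largest difference in amount. Slc11a1 (chromosome 1, 74375203 to 74386051) had 264 FPKM in MEK1-hi and 155 FPKM in MEK1-low, a difference of 109 FPKM, the largest gain of any member. Its log2 fold change was 0.77, and in the authors' deposited table it had a statistic of 1.94, p = 0.0029 and q = 0.153, so it did not pass the adjusted test. The iron exporter gene Slc40a1 (chromosome 1, 45908070 to 45925594) lay in the opposite direction at a far lower level, with 1.59 FPKM in MEK1-hi and 3.10 FPKM in MEK1-low. Its log2 fold change was -0.96, with p = 0.0117 and q = 0.359 in the authors' deposited table. The level of Slc11a1 was 166 times that of Slc40a1 in MEK1-hi and 49.98 times in MEK1-low. Slc11a2, DMT1, the close relative of Slc11a1 that imports iron in most cells, had 55.4 FPKM in MEK1-hi and 56.8 FPKM in MEK1-low.

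Of the 26 metal carriers, 0 were called in the authors' deposited table, 1 had an unadjusted p under 0.05 and was higher, and 1 was lower. Of the 26, 10 lay above 0 and 16 below, and 16 also lay below the median of all tested genes. The class median was -0.07. Their summed level was 806 FPKM in MEK1-hi and 687 FPKM in MEK1-low, and Slc11a1 alone accounts for 109 FPKM of that gap. The Slc39 family, which imports zinc and related metals into the cytosol, had 9 of 11 members below 0, a median of -0.15 and sums of 223 FPKM in MEK1-hi and 247 FPKM in MEK1-low. Its most abundant members were Slc39a1, with 67.4 FPKM in MEK1-hi and 73.9 FPKM in MEK1-low, and Slc39a7, with 61.3 FPKM in MEK1-hi and 68.6 FPKM in MEK1-low. The Slc30 family, which moves zinc out of the cytosol, had 3 of 6 above 0. Among these, Slc30a4, a zinc carrier of vesicles, had 7.51 FPKM in MEK1-hi and 10.6 FPKM in MEK1-low (p = 0.0547 in the authors' deposited table), and Slc30a1, the zinc exporter of the cell surface, had 39.7 FPKM in MEK1-hi and 31.8 FPKM in MEK1-low. The copper transporter relative Slc31a2 had 64.0 FPKM in MEK1-hi and 46.5 FPKM in MEK1-low (p = 0.0522 in the authors' deposited table), and the heme transporter Slc48a1 had 40.6 FPKM in MEK1-hi and 32.8 FPKM in MEK1-low.

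The other genes of iron and metal handling were mostly not called. Of 19 tested genes on that list, 1 was called higher and 0 lower, beside 1.1% and 0.333% of all tested genes. Of the 19, 10 lay above 0, with a median of 0.05. The called gene was Hp, encoding the hemoglobin-binding protein haptoglobin, which rose to 6.23 FPKM in MEK1-hi, against 1.92 FPKM in MEK1-low (q = 0.0276 in the authors' deposited table). The ferritin chains that store iron were the most abundant. Fth1 had 7482 FPKM in MEK1-hi and 5188 FPKM in MEK1-low, and Ftl1 had 3067 FPKM in MEK1-hi and 2799 FPKM in MEK1-low; neither was called. The hemoglobin scavenger receptor gene Cd163, named after its value was seen, had 2.33 FPKM in MEK1-hi and 4.39 FPKM in MEK1-low (p = 0.0102 and q = 0.330 in the authors' deposited table).

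Amino acid and peptide carriers tended to lower values in MEK1-hi without any call. Of 27 members, 7 lay above 0 and 20 below, 20 also lay below the median of all tested genes, and the class median was -0.15. The authors' deposited table called 0 of them. Among those with an unadjusted p under 0.05, 2 were higher and 2 lower. At that p, 3.64% of all tested genes were higher and 2.64% lower. Their summed level was 1443 FPKM in MEK1-hi and 1459 FPKM in MEK1-low. The most abundant members differed little. Besides Slc15a3 and Slc3a2, these were the taurine transporter Slc6a6, with 121 FPKM in MEK1-hi and 128 FPKM in MEK1-low, and the neutral amino acid transporter Slc38a2, with 94.3 FPKM in MEK1-hi and 101 FPKM in MEK1-low.

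Both members that were lower at an unadjusted p under 0.05 belong to the Slc7 family. Slc7a5, LAT1, the light chain that carries leucine and other large neutral amino acids in a pair with Slc3a2, had 25.4 FPKM in MEK1-hi and 38.3 FPKM in MEK1-low. Its log2 fold change was -0.59, with p = 0.0131 and q = 0.383 in the authors' deposited table. Its partner Slc3a2 had a log2 fold change of 0.16 (p = 0.559 in the authors' deposited table), which was 0.03 after rescaling to equal FPKM sums. The level of the heavy chain was 13.3 times that of Slc7a5 in MEK1-hi and 7.91 times in MEK1-low. Slc7a2 (chromosome 8, 40862367 to 40922070), which encodes a cationic amino acid transporter that brings arginine into macrophages, had 3.54 FPKM in MEK1-hi and 6.18 FPKM in MEK1-low. This was a log2 fold change of -0.80, with p = 0.0033 and q = 0.167 in the authors' deposited table. The related arginine transporter Slc7a1 had 11.4 FPKM in MEK1-hi and 14.8 FPKM in MEK1-low, and the cystine and glutamate exchanger Slc7a11 had 8.84 FPKM in MEK1-hi and 9.79 FPKM in MEK1-low. Of the 7 Slc7 transporters, 6 lay below 0 and 1 above. The exception was Slc7a7, a light chain that exports cationic amino acids, with 28.2 FPKM in MEK1-hi and 25.1 FPKM in MEK1-low. In the Slc38 family of neutral amino acid carriers, 5 of 6 lay below 0.

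Both members that were higher at an unadjusted p under 0.05 had levels under 10 FPKM. The peptide transporter Slc15a2, PEPT2, had 7.99 FPKM in MEK1-hi and 4.68 FPKM in MEK1-low (log2 fold change 0.77, p = 0.0185 and q = 0.483 in the authors' deposited table). The glutamate and aspartate transporter Slc1a3 had 2.89 FPKM in MEK1-hi and 1.68 FPKM in MEK1-low (log2 fold change 0.78, p = 0.0438 and q = 0.777 in the authors' deposited table). All 3 members of the Slc15 peptide family lay above 0, with Slc15a4, the endolysosomal histidine and peptide carrier, at 23.95 FPKM in MEK1-hi and 20.5 FPKM in MEK1-low; after rescaling to equal FPKM sums Slc15a3 lay below 0 (-0.08).

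Among genes of amino acid use and sensing, Arg1 alone was called, of 23 tested, beside 1.43% of all tested genes. Arg1, the arginase that consumes the arginine which Slc7a2 and Slc7a1 carry in, fell to 10.6 FPKM in MEK1-hi, against 32.8 FPKM in MEK1-low (q = 0.00676 in the authors' deposited table). At an unadjusted p under 0.05, 1 of the 23 was higher, Ass1, and 2 were lower, Arg1 and Shmt2. Ass1, which rebuilds arginine from citrulline, was named after its value was seen and had 4.51 FPKM in MEK1-hi and 2.30 FPKM in MEK1-low (p = 0.0230 and q = 0.552 in the authors' deposited table). Also named afterwards, Shmt2 had 37.3 FPKM in MEK1-hi and 52.6 FPKM in MEK1-low (p = 0.0371 and q = 0.709 in the authors' deposited table). Of the other arginine genes, Arg2 and Asl had log2 fold changes of -0.02 and -0.12. The median over the 23 was -0.05, with 9 above 0. The most abundant were the stress factor gene Atf4, with 293 FPKM in MEK1-hi and 259 FPKM in MEK1-low, and Lamtor2, a part of the lysosomal amino acid sensor, with 104 FPKM in MEK1-hi and 110 FPKM in MEK1-low.

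**Figure D3:**
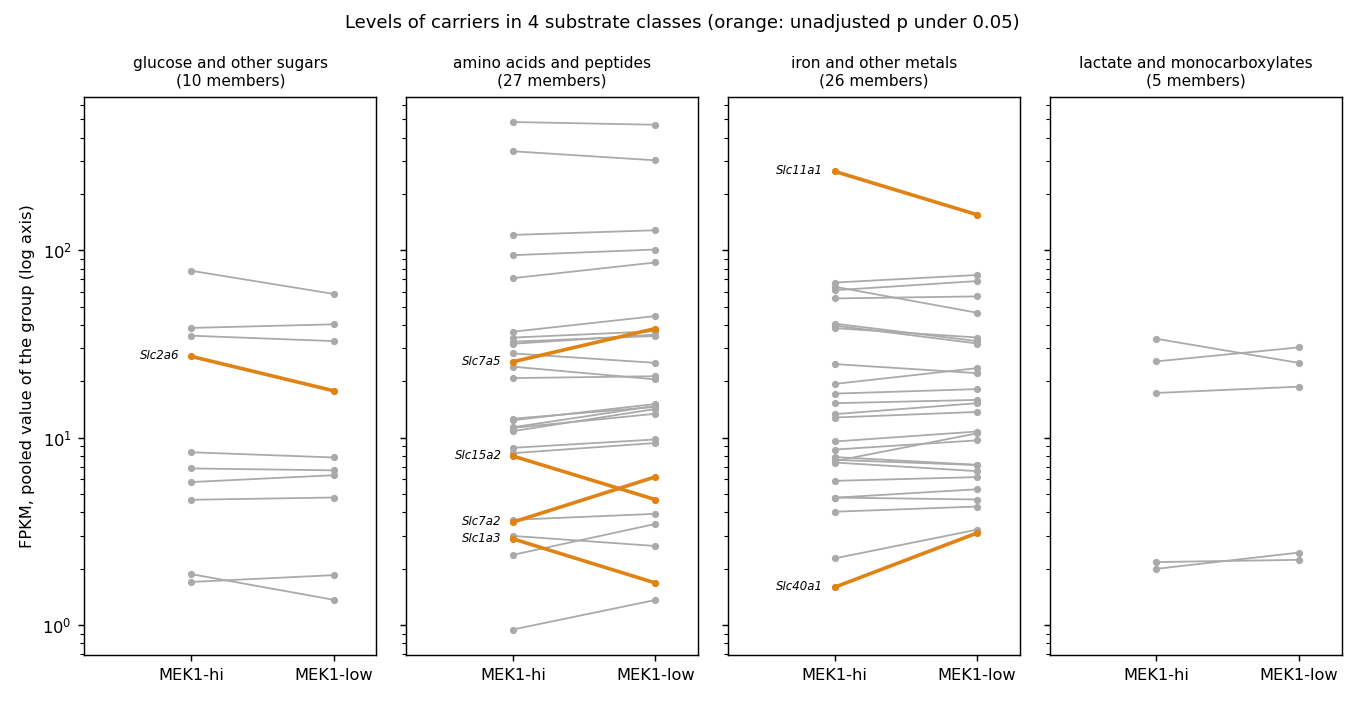
Lines join the pooled FPKM of each member in MEK1-hi (left) and MEK1-low (right) on a shared log axis, with 1 panel for each of 4 substrate classes. Orange lines mark the members with an unadjusted p under 0.05: Slc2a6, Slc7a5, Slc15a2, Slc7a2, Slc1a3, Slc11a1 and Slc40a1.

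Glucose and other sugar carriers had 6 of 10 members above 0 and a median of 0.06, which turned to -0.07 after rescaling to equal FPKM sums. The same shift moved the median of all tested genes to -0.15, and 4 of the 10 lay below the median of all tested genes. None was called and 1 had an unadjusted p under 0.05 in the authors' deposited table. Slc2a1, GLUT1, the main glucose importer of activated macrophages, was the most abundant, with 77.9 FPKM in MEK1-hi and 58.6 FPKM in MEK1-low. The log2 fold change was 0.41, with p = 0.0809 and q = 0.960 in the authors' deposited table. Slc2a6, GLUT6, a relative found on internal membranes of leukocytes, had 27.2 FPKM in MEK1-hi and 17.8 FPKM in MEK1-low. This was a log2 fold change of 0.61, with p = 0.0162 and q = 0.445 in the authors' deposited table. Slc2a3, GLUT3, was near the lower limit of the rule, with 1.70 FPKM in MEK1-hi and 1.85 FPKM in MEK1-low. The sugar phosphate carrier Slc37a2 had 38.6 FPKM in MEK1-hi and 40.3 FPKM in MEK1-low, the sugar carrier Slc50a1 had 35.1 FPKM in MEK1-hi and 32.8 FPKM in MEK1-low, and Slc37a3 had 5.80 FPKM in MEK1-hi and 6.31 FPKM in MEK1-low.

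Of 16 tested partner genes of glucose uptake, which include glycolytic enzymes and regulators such as Hif1a and Txnip, 1 was called higher and 0 lower. The shares over all tested genes were 1.1% and 0.333%. Of the 16, 12 lay above 0, with a median of 0.16. At an unadjusted p under 0.05, 2 were higher and 0 lower, beside 3.64% and 2.64% of all tested genes. The called gene was Hk3, a hexokinase of myeloid cells, which rose to 98.9 FPKM in MEK1-hi, against 47.2 FPKM in MEK1-low (q = 0.0118 in the authors' deposited table). The other was Pfkp, named after its value was seen, with 37.5 FPKM in MEK1-hi and 22.1 FPKM in MEK1-low (p = 0.0351 and q = 0.685 in the authors' deposited table). The most abundant were Aldoa, with 456 FPKM in MEK1-hi and 416 FPKM in MEK1-low, and Pkm, with 422 FPKM in MEK1-hi and 362 FPKM in MEK1-low. Both encode enzymes of glycolysis, and neither was called.

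Lactate and other monocarboxylate carriers had 5 members, of which 1 lay above 0 and 4 below, with 0 called and 0 at an unadjusted p under 0.05 in the authors' deposited table. The same 4 lay below the median of all tested genes. The lactate exporter gene Slc16a3, MCT4, was the one above, with 33.7 FPKM in MEK1-hi and 25.1 FPKM in MEK1-low (log2 fold change 0.43, Cuffdiff p = 0.0778 and q = 0.955 in the authors' deposited table). Slc16a1, MCT1, which carries lactate in either direction, had 17.3 FPKM in MEK1-hi and 18.7 FPKM in MEK1-low. The level of Slc16a3 was 1.95 times that of Slc16a1 in MEK1-hi and 1.34 times in MEK1-low. Slc16a6 had 25.6 FPKM in MEK1-hi and 30.4 FPKM in MEK1-low, in a locus that overlaps other rows of the table, and Slc16a7, MCT2, had 2.00 FPKM in MEK1-hi and 2.44 FPKM in MEK1-low. Of 7 tested partner genes, 0 were called by Cuffdiff and 1 had an unadjusted p under 0.05 in the authors' deposited table, with 2 above 0 and a median of -0.03. That gene was Hcar2, a receptor for hydroxybutyrate and niacin, named after its value was seen, with 37.2 FPKM in MEK1-hi and 21.7 FPKM in MEK1-low (p = 0.0018 and q = 0.108 in the authors' deposited table). Ldha, which makes lactate, had 282 FPKM in MEK1-hi and 269 FPKM in MEK1-low, and Bsg, whose protein brings the lactate carriers to the cell surface, had 209 FPKM in MEK1-hi and 216 FPKM in MEK1-low.

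The Slc25 carriers were the largest class and lay close to 0. The class was taken by symbol and includes Slc25a17, a carrier of peroxisomes, and Slc25a46, a protein of the outer mitochondrial membrane. Of 35 members, 15 lay above 0 and 20 below, and 19 lay below the median of all tested genes. The class median was -0.03, and the summed level was 1344 FPKM in MEK1-hi and 1341 FPKM in MEK1-low. The authors' deposited table called 0 of them and gave 1 an unadjusted p under 0.05. That member was Slc25a38, which imports glycine for the first step of heme synthesis, with 9.92 FPKM in MEK1-hi and 6.32 FPKM in MEK1-low (log2 fold change 0.65, p = 0.0365 and q = 0.701 in the authors' deposited table). After the phosphate carrier came the ADP and ATP exchangers, Slc25a5 with 252 FPKM in MEK1-hi and 261 FPKM in MEK1-low, and Slc25a4 with 177 FPKM in MEK1-hi and 205 FPKM in MEK1-low. The ADP and ATP exchangers have pseudogene copies, so the assignment of their reads is uncertain. Slc25a39, a glutathione importer, had 76.8 FPKM in MEK1-hi and 78.5 FPKM in MEK1-low. The mitochondrial iron importers Slc25a28 and Slc25a37 had 79.2 and 12.7 FPKM in MEK1-hi, against 75.4 and 11.6 FPKM in MEK1-low. The lowest log2 fold change among members with at least 5 FPKM in a group was that of the ATP-magnesium and phosphate carrier Slc25a24, -0.44, with 16.1 FPKM in MEK1-hi and 21.8 FPKM in MEK1-low (p = 0.0744 in the authors' deposited table).

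Of 15 tested genes for other proteins of the mitochondrial membranes and matrix, 0 were called by Cuffdiff and 0 had an unadjusted p under 0.05, with 5 above 0 and a median of -0.07. The most abundant were the cholesterol-binding protein gene Tspo, with 232 FPKM in MEK1-hi and 197 FPKM in MEK1-low, and the outer membrane channel gene Vdac2, with 116 FPKM in MEK1-hi and 101 FPKM in MEK1-low.

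**Figure D4:**
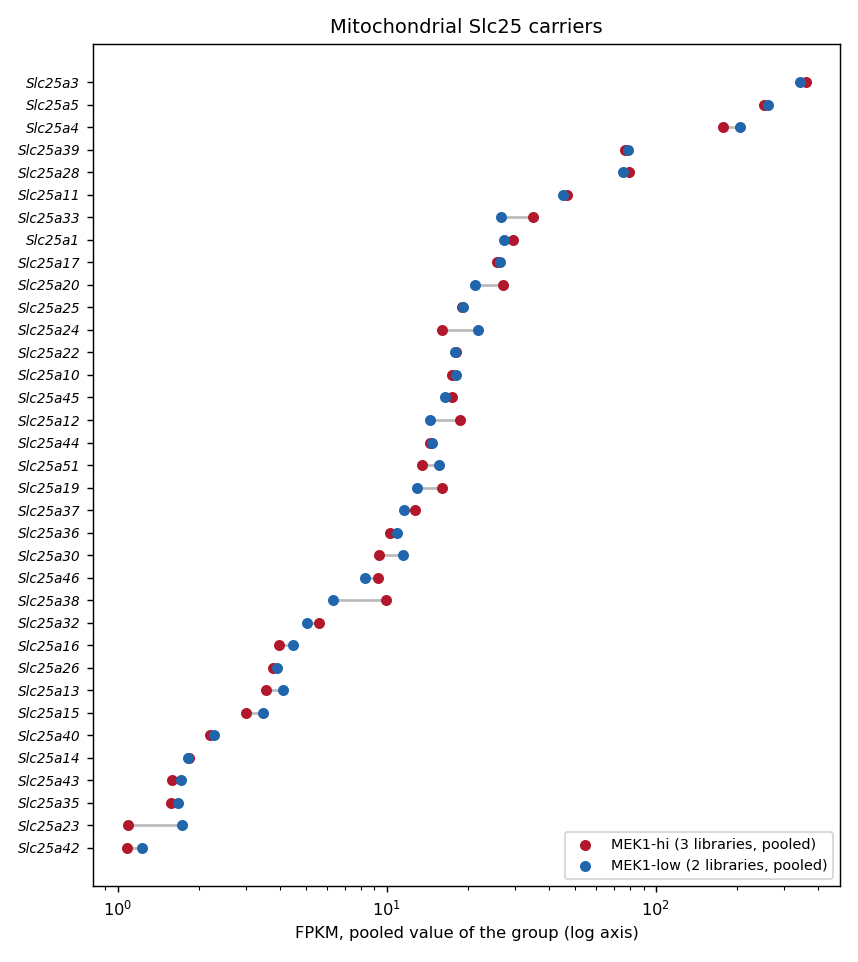
The 35 Slc25 members are ordered by mean level, and points give the pooled FPKM of MEK1-hi (red) and MEK1-low (blue) on a log axis. The pairs lie close together from 362 FPKM in MEK1-hi and 342 FPKM in MEK1-low for Slc25a3 at the top to 1.08 FPKM in MEK1-hi and 1.24 FPKM in MEK1-low for Slc25a42, and Slc25a38 is the member with an unadjusted p under 0.05.

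In the remaining classes no member was called. The member with the log2 fold change farthest from 0 was Slc9b2, a sodium and proton exchanger known from osteoclasts (chromosome 3, 135307700 to 135342767), with 1.93 FPKM in MEK1-hi and 4.38 FPKM in MEK1-low. Its log2 fold change was -1.18, with p = 0.00665 and q = 0.253 in the authors' deposited table, and it shrank to -0.88 with 1 FPKM added to both groups. Slc4a11, a proton transporter of the bicarbonate transporter family, had 4.60 FPKM in MEK1-hi and 2.67 FPKM in MEK1-low (p = 0.0218 and q = 0.534 in the authors' deposited table). The other ion carriers had no p under 0.05, and the most abundant was the mitochondrial sodium and calcium exchanger Slc8b1, with 46.3 FPKM in MEK1-hi and 41.8 FPKM in MEK1-low. The class of 16 had 8 above 0 and a median of -0.01. The urea transporter Slc14a1, a gene also active in endothelial cells and red cell precursors, had 3.46 FPKM in MEK1-hi and 6.57 FPKM in MEK1-low (p = 0.0037 and q = 0.177 in the authors' deposited table). The endothelial markers, 6 of them, summed to 10.7 FPKM in MEK1-hi and 9.89 FPKM in MEK1-low. Of the red cell markers, 4 were found, 2 were at 0 in both groups, and the sums were 1.27 FPKM in MEK1-hi and 2.11 FPKM in MEK1-low. The part of these cells in the level of Slc14a1 was not tested.

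The choline carrier Slc44a1 had 12.3 FPKM in MEK1-hi and 19.5 FPKM in MEK1-low (log2 fold change -0.66, p = 0.0125 and q = 0.374 in the authors' deposited table). The fatty acid carrier Slc27a1 had 24.4 FPKM in MEK1-hi and 32.7 FPKM in MEK1-low (p = 0.0806 in the authors' deposited table). Slc46a3, a lysosomal carrier, had 2.28 FPKM in MEK1-hi and 1.38 FPKM in MEK1-low (p = 0.0473 and q = 0.803 in the authors' deposited table), and Slc66a2, the most abundant of the unassigned class, had 18.6 FPKM in MEK1-hi and 16.1 FPKM in MEK1-low. Slc9a3r1, the scaffold NHERF1 that ties membrane proteins to the cytoskeleton and is no transporter, had 48.6 FPKM in MEK1-hi and 33.7 FPKM in MEK1-low (p = 0.0269 and q = 0.598 in the authors' deposited table). In the phosphate, sulfate and other anion class, 7 of 8 lay below 0 with a median of -0.23, and its most abundant member was the phosphate importer Slc20a1, with 89.6 FPKM in MEK1-hi and 110 FPKM in MEK1-low. The 19 Slc35 members, most of which bring nucleotide sugars into the Golgi and endoplasmic reticulum, had 10 above 0, a median of 0.01 and 0 with an unadjusted p under 0.05. The Golgi sulfate donor carrier Slc35b2 led them with 79.4 FPKM in MEK1-hi and 66.5 FPKM in MEK1-low. Vitamin carriers (6) and carriers of organic ions and drugs (6) had 0 members with an unadjusted p under 0.05. Their most abundant members were the vitamin C carrier Slc23a2, with 23.4 FPKM in MEK1-hi and 21.8 FPKM in MEK1-low, and the creatine carrier Slc6a8, with 27.6 FPKM in MEK1-hi and 32.8 FPKM in MEK1-low.

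Some solute carrier families have members under other symbols, which the rule leaves out. Of 27 tested genes of this kind, 1 was called higher and 0 lower, beside 1.1% and 0.333% of all tested genes. Of the 27, 13 lay above 0, with a median of -0.01. The called gene was Slco3a1, an organic anion transporter, which rose to 17.8 FPKM in MEK1-hi, against 8.74 FPKM in MEK1-low (q = 0.0118 in the authors' deposited table). Its relative Slco2b1, named after its value was seen, lay the other way and just missed the threshold, with 10.2 FPKM in MEK1-hi and 19.4 FPKM in MEK1-low (q = 0.0531 in the authors' deposited table). Ucp2, a mitochondrial carrier of the Slc25 superfamily, was the most abundant, with 870 FPKM in MEK1-hi and 706 FPKM in MEK1-low, above every Slc25 member. Mtch1, a related protein of the outer membrane, had 91.1 FPKM in MEK1-hi and 97.1 FPKM in MEK1-low.

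Promoter sequences were read for the 15 members with an unadjusted p under 0.05, of which 1, Slc28a2, was called. Their share, 8.38% of the members, is near the 6.29% of all tested genes, so the list is a description and not a set of established differences. RefSeq windows on GRCm38.p6, from 250 bases before to 50 after a start site, were found within 5 bases of the deposited locus's own start for 9 of the 15. Slc28a2, the called member, is not among the 9, since its RefSeq window starts away from the deposited locus. Of these 9, 4 are shown: Slc11a1, the most abundant of the 15; Slc1a3 and Slc46a3, which held a gamma-activated site; and Slc9b2, the member with the log2 fold change farthest from 0. Capitals mark matches to 5 motifs searched on both strands: the gamma-activated site TTCNNNGAA bound by STAT dimers, the interferon-stimulated response element core GAAANNGAA, the antioxidant response element TGACNNNGC, the hypoxia response element core ACGTG and the ATF and C/EBP element TGATGNAA.
Slc11a1, chr1:74374953-74375252, plus strand: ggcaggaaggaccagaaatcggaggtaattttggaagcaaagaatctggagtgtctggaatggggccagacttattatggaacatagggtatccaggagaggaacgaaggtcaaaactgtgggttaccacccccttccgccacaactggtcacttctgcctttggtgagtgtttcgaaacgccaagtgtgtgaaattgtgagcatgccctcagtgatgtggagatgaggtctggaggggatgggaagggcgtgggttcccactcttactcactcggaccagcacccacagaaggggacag
Slc1a3, chr15:8710758-8711057, minus strand: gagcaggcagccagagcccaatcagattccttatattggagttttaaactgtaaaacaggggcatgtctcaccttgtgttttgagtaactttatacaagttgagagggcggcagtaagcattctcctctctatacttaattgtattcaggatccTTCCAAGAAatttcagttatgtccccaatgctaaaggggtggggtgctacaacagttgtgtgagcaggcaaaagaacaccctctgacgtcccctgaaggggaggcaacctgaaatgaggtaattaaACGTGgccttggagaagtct
Slc46a3, chr5:147894766-147895065, minus strand: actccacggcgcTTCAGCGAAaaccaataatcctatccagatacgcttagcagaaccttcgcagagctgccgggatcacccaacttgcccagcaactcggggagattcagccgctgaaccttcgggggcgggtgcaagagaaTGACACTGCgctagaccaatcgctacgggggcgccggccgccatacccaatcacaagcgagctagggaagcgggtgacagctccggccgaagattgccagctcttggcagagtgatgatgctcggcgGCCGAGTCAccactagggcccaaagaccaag
Slc9b2, chr3:135307450-135307749, plus strand: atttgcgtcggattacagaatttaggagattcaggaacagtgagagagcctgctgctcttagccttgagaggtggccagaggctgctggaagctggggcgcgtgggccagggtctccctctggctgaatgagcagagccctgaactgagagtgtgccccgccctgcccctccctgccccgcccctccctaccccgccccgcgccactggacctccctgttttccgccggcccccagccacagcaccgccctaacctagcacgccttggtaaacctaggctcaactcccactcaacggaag

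The windows of Slc11a1 and Slc9b2 held none of these letters. In Slc1a3 the gamma-activated site lay at -96 to -88, counted with the start site as 0, and the hypoxia core at 30 to 34. In Slc46a3 the gamma-activated site lay at -238 to -230, and antioxidant elements lay at -108 to -100 and at 19 to 27. Of the 9 windows, 2 held a gamma-activated site, 2 an antioxidant element and 2 a hypoxia core, and 0 held the interferon-stimulated core or the ATF and C/EBP element. Among the windows not shown, that of Slc25a38 held an antioxidant element and that of Slc15a2 a hypoxia core. Over the first window of each of 27025 genes in the RefSeq table, the shares were 8.5% for the gamma-activated site, 12.5% for the antioxidant element, 19.7% for the hypoxia core, 8.6% for the interferon-stimulated core and 4.1% for the ATF and C/EBP element. Among the 135 members with a RefSeq window, 31 held an antioxidant element and 44 (32.6%) a hypoxia core, while 9 (6.7%) held a gamma-activated site and 6 (4.4%) each of the other elements. The 27025 genes include many that were not tested here. A match describes letters in the window and is not a bound site, and no matched positions overlapped between motifs.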

How the data were processed

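RNA-seq libraries of mouse tumor macrophages (3 MEK1-hi, 2 MEK1-low) were made, per the labels' protocols, from TRIzol-extracted RNA with an integrity number above 8.0, as stranded poly(A) libraries from 750 ng and paired reads of 100 bases, with a planned 25 M reads for each. The submitters' processing notes name mm10 and, without role or order, Cuffdiff, Cufflinks, TopHat and FastQC 0.73. For annotation and strand setting, the sources used here give nothing. The authors deposited 1 Cuffdiff table with pooled FPKM values per group, a test statistic (a score deposited by the authors), and p-values and q-values as deposited by the authors. The q-values equal Benjamini-Hochberg over the 12311 tested rows to within 5e-07. Depth per library is unknown, so neither intervals nor detection floors could be given, and no count model was run.

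Log2 fold changes were computed from the FPKM values. Members, substrate classes (by symbol), gene lists, markers and motifs were chosen with earlier results of these data known, and the class of non-transporters was set apart after the symbols were seen. Named genes were every called member, every member with an unadjusted p under 0.05, the 4 most abundant and those with the highest and the lowest log2 fold change (at 5 FPKM or more) in each of 5 main classes, the most abundant in each other class, and in each gene list the called genes and the 2 most abundant; others are said to be so or serve a family described beside them. List symbols were matched directly or through RefSeq synonyms. Of the members, 135 of 179 had a RefSeq promoter window. Starts of loci are written 1-based. No list test was run. Adjustment and motif search were tested on simulated data. Alternatives changed the q threshold, adjustment, source of p, FPKM minimum, fold minimum, scaling and pseudocount. Versions were scipy 1.17.1, pandas 2.3.3, numpy 2.4.6, matplotlib 3.10.9 and Python 3.11.15.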

Additional observations from a re-analysis of the deposited data

How the results depend on the processing

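The count of 1 called member, higher in MEK1-hi, stood at a q threshold of 0.1, without an FPKM minimum, with a minimum of 5 FPKM and with a fold of at least 2, and 0 were called lower under each of these. All of these settings reused the deposited q. Slc28a2, with 11.97 FPKM in MEK1-hi and a 2.08-fold difference, could therefore not be lost under them. The looser q and the missing FPKM minimum could only have added calls, and the other settings could only have removed them. The count was 0 with Benjamini-Yekutieli adjustment and 0 with p taken from the deposited statistic and a normal distribution, settings under which 0 and 15 of the 12311 tested rows were called. By that normal p, 1 member (Slc28a2) instead of 15 was under 0.05 unadjusted; the deposited p was the smaller in 99.7% of tested rows, and the cause was not tested. The 15 were 17 without an FPKM minimum and 10 at 5 FPKM.

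Rescaling to equal FPKM sums moved medians by its own shift: to -0.18 over all members, -0.069 for glucose (reversed from 0.06), -0.28 for amino acids, -0.20 for metals, -0.24 for lactate and -0.16 for Slc25. The median of all tested genes moved by the same shift, to -0.15, so the place of each class beside it did not change. Rescaling changed the sign of 0 of the 15 members with a p under 0.05. No sign could change there, because the shift was -0.13 and the log2 fold change nearest 0 among them was 0.53 (Slc9a3r1). A pseudocount of 1 FPKM or a minimum of 5 FPKM moved each of these medians by less than 0.1, though Slc25 turned to 0.04 at 5 FPKM. No paired analysis was possible because the table has no values per library, and leaving out single libraries was not run for the same reason. Depth is unknown, which limits statements on genes of low level.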
